A study of Homo sapiens with 8 samples.

Results

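The genes described here encode the pyruvate dehydrogenase (PDH) complex with its regulatory kinases and phosphatases, the enzymes of the tricarboxylic acid (TCA) cycle, and the malate-aspartate and anaplerotic enzymes around it. They were chosen by gene symbol, with earlier results of these data known, as 33 named members of the 61806 genes in the count table. All 33 were found. The cells were N/TERT-1, an immortalized human epidermal keratinocyte line of WT genotype grown in serum-free keratinocyte medium, and being 1 line they stand for keratinocytes of 1 origin only. In 4 libraries the cells had received ethanol, the vehicle, and in 4 libraries O/A, antimycin A at 4 µM together with oligomycin at 10 µM, for 4 hours. Oligomycin inhibits ATP synthase and antimycin A inhibits complex III, so that oxidative phosphorylation stops and mitochondria depolarize. The labels number the libraries as biological replicates 1 to 4 in each condition. No targeted gene or second cell line enters the comparison, which asks how mRNA levels differ after this mitochondrial insult.

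Between 17210404 and 20999927 counts were assigned to genes in each ethanol library and between 17689760 and 19263046 in each O/A library, of which the 33 genes took 0.294% to 0.307%. Each of 6 basal keratinocyte markers was present at 23.8 FPKM or more in every library, where FPKM is fragments scaled to the exon length of a gene and the total of its library. Their summed level was 2840 to 3100 FPKM with ethanol and 2470 to 2620 FPKM with O/A. KRT5 (1397 to 1495 against 1094 to 1177 FPKM) was lower in every O/A library, while ITGA6 (143 to 149 against 154 to 158 FPKM) and ITGB4 (123 to 130 against 132 to 137 FPKM) were higher. KRT14 (1003 to 1167 against 932 to 997 FPKM) was separated only narrowly. FPKM are not TMM scaled, and the scaling factors given below differ by more than this gap, so a fall of KRT14 in every library was not shown. No marker of fibroblasts, melanocytes, leukocytes or endothelial cells exceeded 2.94 FPKM, and MLANA and TYR were at 0 throughout. The summed fibroblast markers, nearly all COL1A1, were 2.40 to 2.95 FPKM with ethanol and 2.42 to 2.63 FPKM with O/A. In bulk RNA of this kind, fewer cells and less RNA per cell cannot be told apart.

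Pyruvate made by glycolysis enters mitochondria, where the PDH complex converts it to acetyl-CoA, and the PDH kinases switch that complex off by phosphorylation while the PDH phosphatases switch it back on. The TCA cycle oxidizes the acetyl group and hands electrons to the respiratory chain, and it depends on the NAD+ that the chain regenerates. Carbon drawn from the cycle for synthesis is replaced by anaplerotic reactions such as pyruvate carboxylation and glutamate deamination, and the malate-aspartate enzymes move reducing equivalents and build aspartate across the mitochondrial membrane.

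Promoter windows from RefSeq (GRCh38.p14, 250 bases before to 50 after the start) are printed for PCK2 and GOT1, the members that rose most, and for PDK1, a kinase that fell. Capitals mark a match to the amino acid response element of ATF4 with C/EBP (TGATGNAA) or to the core of the hypoxia response element (ACGTG), searched on both strands. All bases run 5′ to 3′ on the strand of the gene.
PCK2, chr14:24094061-24094360, plus strand: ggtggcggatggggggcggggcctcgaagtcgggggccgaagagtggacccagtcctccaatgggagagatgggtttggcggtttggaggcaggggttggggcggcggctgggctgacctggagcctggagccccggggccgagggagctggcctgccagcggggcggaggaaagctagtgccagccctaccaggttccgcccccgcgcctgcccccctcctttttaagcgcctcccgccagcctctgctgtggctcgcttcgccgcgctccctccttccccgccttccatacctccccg
GOT1, chr10:99430575-99430874, minus strand: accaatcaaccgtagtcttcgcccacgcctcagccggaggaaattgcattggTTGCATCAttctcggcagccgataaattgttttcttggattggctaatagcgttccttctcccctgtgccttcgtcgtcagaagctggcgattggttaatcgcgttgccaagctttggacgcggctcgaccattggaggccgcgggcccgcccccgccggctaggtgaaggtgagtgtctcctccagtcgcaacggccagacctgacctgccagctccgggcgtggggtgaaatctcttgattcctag
PDK1, chr2:172555840-172556139, plus strand: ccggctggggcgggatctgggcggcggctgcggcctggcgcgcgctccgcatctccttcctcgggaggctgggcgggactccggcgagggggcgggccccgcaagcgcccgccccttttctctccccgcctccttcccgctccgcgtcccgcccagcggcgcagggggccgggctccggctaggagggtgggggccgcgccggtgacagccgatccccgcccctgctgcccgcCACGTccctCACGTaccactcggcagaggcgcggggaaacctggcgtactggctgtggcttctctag
The promoter table held 38 windows for 30 of the members, some genes having more than 1 start, and shares are counted over windows. The GOT1 window held the only TGATGNAA match among the 38. The match, TTGCATCA, reads TGATGNAA on the opposite strand and begins at position -198 from the start. Of all 35116 windows in the table, 3.62% held this motif, against 2.63% of those of members. In the window shown for PCK2, neither TGATGNAA nor ACGTG was found, which concerns these letters in this window alone. The PDK1 window held ACGTG on the opposite strand at 2 places, positions -17 and -8 from the start, and 10 of the 38 windows of members (26.3%) held at least 1 such match, against 21.4% of all windows. The other PDK1 entry, whose start lies upstream, held neither motif. The related hypoxia core GCGTG was found in 18 windows of members (47.4%) and in 36.5% of all windows. The estrogen-related receptor element TNAAGGTCA was found in SDHD alone among the members (0.951% of all windows), and the nuclear respiratory factor 1 core CGCNTGCG in 8 windows of members (21.1%, against 10% of all windows). These shares are descriptions of sequence and were not tested. PDP1, OGDH and SDHC had no entry in the promoter table.

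After O/A treatment, PCK2, GOT1 and PDP1 rose and PDK1 and OGDH fell, while the other 27 members that could be tested did not pass both thresholds, an adjusted p of at most 0.05 and an absolute log2(FC) above 0.25. The log2(FC) is O/A against ethanol from edgeR's quasi-likelihood test, with p-values adjusted over all 14893 genes tested. One member, PDK4, had at most 2 counts in any library and was not tested, which leaves 32. The 5 called members are 15.6% of those tested, against 34.7% of all genes tested. By direction, 3 members (9.38%) rose against 15.8% of all genes, and 2 (6.25%) fell against 18.9%. The median log2(FC) was -0.00 both for the members and for all genes tested, and single members ranged from -0.32 to 2.25.

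The members were well covered, with a median mean count of 1316 against 399 for all genes tested. For 21 members (65.6%) the whole 95% interval of the log2(FC) lay within 0.25 of 0, against 29.4% of all genes tested. The adjusted p was at most 0.05 for 17 members, of which 12 had a log2(FC) within the threshold. Some of these lay at the limit. PDHA1, PDHX and DLST had an adjusted p of 0.0394, 0.0421 and 0.0459 from edgeR, and of 0.123, 0.0712 and 0.133 from DESeq2. PDP2, SUCLA2, SDHB and PC also exceeded 0.05 under some alternative processing, reaching 0.055, 0.104, 0.096 and 0.176. The O/A libraries lay wholly above the ethanol libraries for 6 members and wholly below for 8, together 43.8% of those tested, against 47.6% of all genes. Such separation fixes the exact two-sided permutation test at p = 0.0286, the smallest value that 4 libraries against 4 allow. For these 14 members that p therefore adds nothing to the separation itself.

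**Figure D1:**
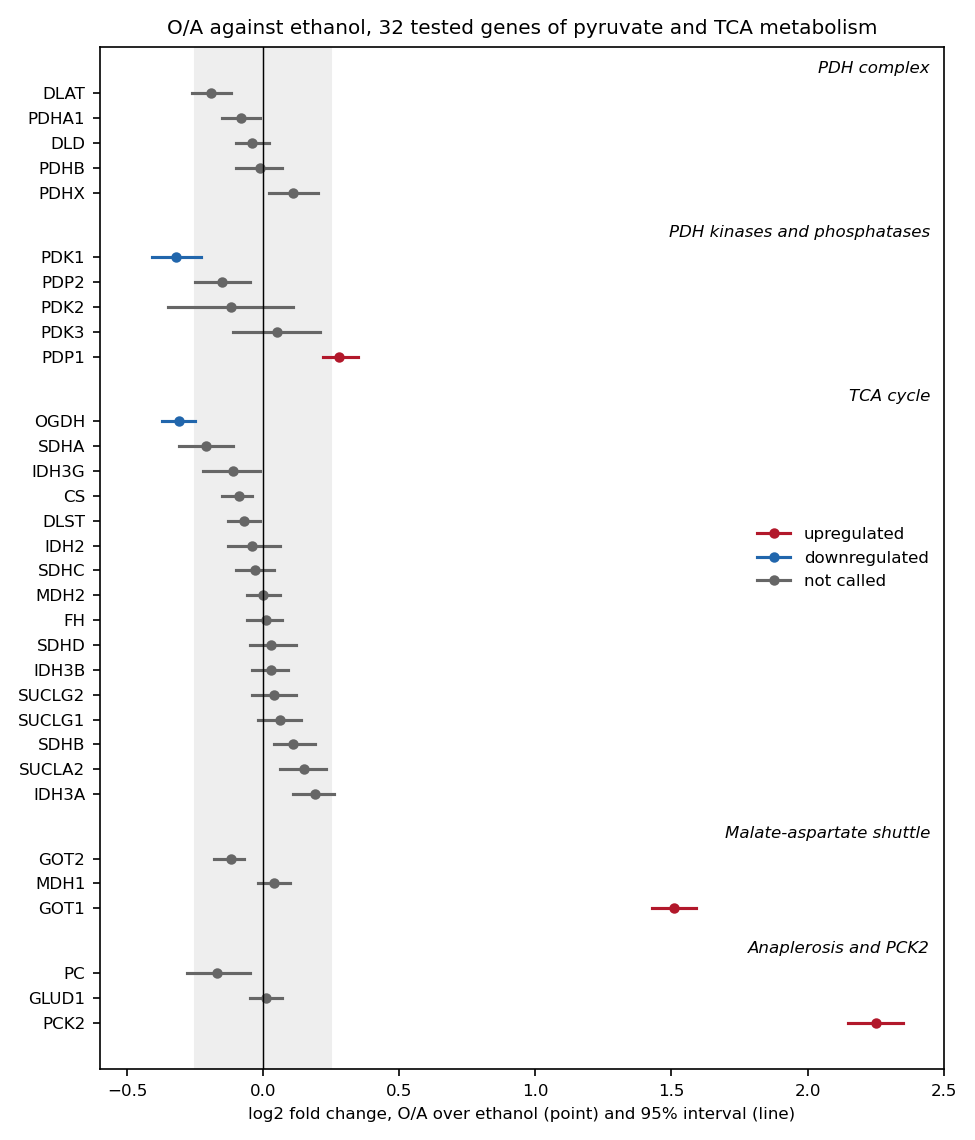
Log2(FC) of O/A against ethanol (horizontal axis) for the 32 members tested, grouped by role, with points for the estimate, bars for the 95% interval and a grey band for the threshold of 0.25 in each direction. PCK2 at 2.25 and GOT1 at 1.51 stand far to the right, PDP1, PDK1 and OGDH have their points outside the band at 0.28, -0.32 and -0.31, and the remaining 27 points lie inside it.

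PCK2 (ENSG00000100889), the mitochondrial phosphoenolpyruvate carboxykinase that turns oxaloacetate into phosphoenolpyruvate, lies on chromosome 14 from 24094053 to 24110598 on the plus strand of GRCh38. With ethanol its level was 23.1, 18.5, 21.9 and 19.3 CPM, the count scaled to the TMM-adjusted library size, in replicates 1 to 4, and with O/A 97.4, 97.2, 101 and 97.1 CPM. The groups lay far apart, with little spread within either. Its log2(FC) was 2.25 (standard error 0.049, adjusted p = 2.57e-37 from edgeR), a 4.75-fold rise, and it ranked 58 of the 14893 genes by log2(FC). These values rest on 331 to 429 counts with ethanol and 1692 to 1916 with O/A. The cytosolic form PCK1 had 0 counts in all 8 libraries, which allows up to 3 counts per library.

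The other anaplerotic members did not pass both thresholds. PC, the pyruvate carboxylase that makes oxaloacetate from pyruvate, stood at 31.1, 31.2, 37.3 and 30.7 CPM with ethanol and at 27.7, 27.9, 30.1 and 29.9 CPM with O/A. All O/A libraries were below all ethanol libraries, but the gap was small and ethanol replicate 3 stood above its group. The log2(FC) was -0.17 (95% interval -0.28 to -0.05, adjusted p = 0.0118 from edgeR), within the threshold, and without ethanol replicate 3 it was -0.09 with an adjusted p of 0.176. LRFN4, a gene on the opposite strand inside the PC span, held reads equal to 41.6% of those of PC and fell by 0.75 on the log2 scale. GLUD1, the glutamate dehydrogenase that feeds 2-oxoglutarate into the cycle, ranged from 161 to 176 CPM with ethanol and from 166 to 172 CPM with O/A, so that the groups overlapped. Its log2(FC) was 0.01 (95% interval -0.05 to 0.07, adjusted p = 0.887 from edgeR). The ratio of PCK2 to PC in FPKM, which is per length of the exons, went from 1.03 to 1.30 per ethanol library to 5.67 to 6.13 per O/A library. That is 5.34-fold higher (log2 difference 2.42, exact permutation p = 0.0286, adjusted p = 0.05 over 7 ratios). The ratio mostly repeats the rise of PCK2. Its p is the smallest possible and adds nothing to the separation of the libraries, which holds for every ratio with this p.

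GOT1 (ENSG00000120053) encodes the cytosolic aspartate aminotransferase of the malate-aspartate shuttle, and lies on chromosome 10 from 99396870 to 99430624 on the minus strand. It stood at 53.8, 59.5, 59.3 and 53.5 CPM with ethanol and at 162, 159, 170 and 152 CPM with O/A. Every O/A library was more than double any ethanol library. The log2(FC) was 1.51 (standard error 0.038, adjusted p = 7.28e-32 from edgeR), a 2.85-fold rise that ranked 155 of all genes tested.

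GOT2, the mitochondrial aminotransferase of the same reaction, moved in the other direction by a small amount. Its ethanol libraries held 263, 266, 275 and 258 CPM and its O/A libraries 246, 245, 240 and 246 CPM. The groups did not overlap, and the log2(FC) of -0.12 (95% interval -0.18 to -0.07, adjusted p = 1.40e-04 from edgeR) was within the threshold. In FPKM, GOT1 was at 0.317 to 0.346 of GOT2 in the ethanol libraries and at 0.960 to 1.1 in the O/A libraries, a 3.10-fold higher ratio (exact permutation p = 0.0286, adjusted p = 0.05). On this per-length scale the cytosolic and mitochondrial transcripts were close to equal after O/A, where GOT2 had been the more abundant before. The malate dehydrogenases, which carry out the partner step of the shuttle, did not pass the test. MDH1, the cytosolic form, ranged from 136 to 148 CPM with ethanol and from 142 to 149 CPM with O/A (log2(FC) 0.04, 95% interval -0.02 to 0.10, adjusted p = 0.276). MDH2, the mitochondrial form and also the last enzyme of the cycle, had a log2(FC) of -0.00 (95% interval -0.06 to 0.06, adjusted p = 0.974). The ratio of MDH1 to MDH2 in FPKM was 0.523 to 0.553 with ethanol and 0.536 to 0.572 with O/A (exact permutation p = 0.200, adjusted p = 0.233).

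**Figure D2:**
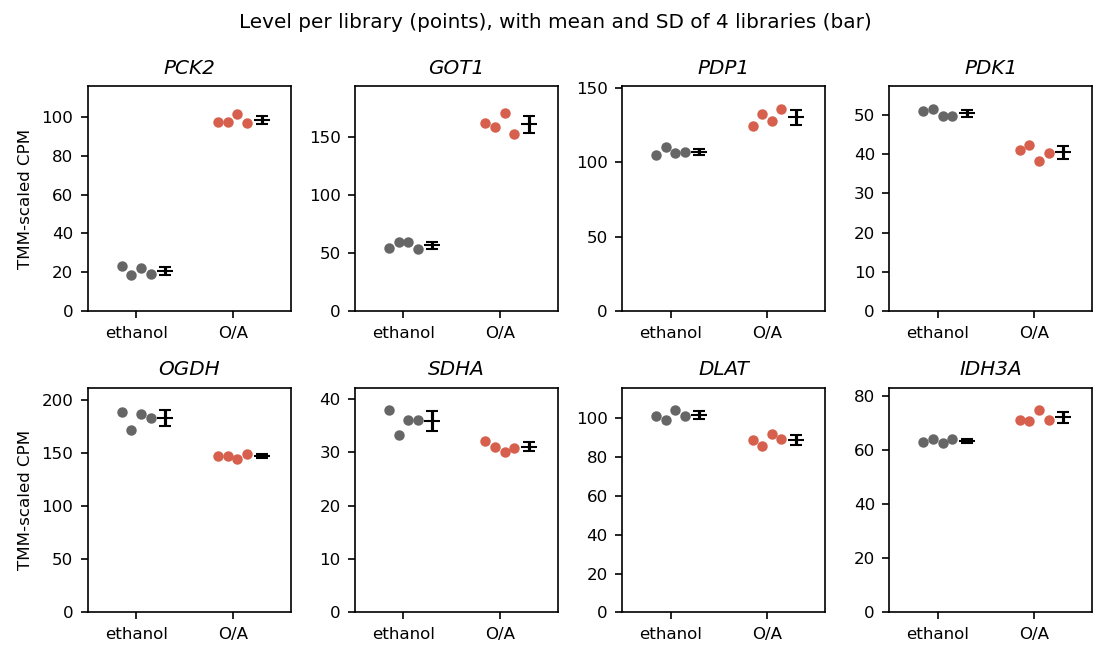
TMM-scaled CPM (vertical axes, one scale per panel) of 8 members in the 4 ethanol and the 4 O/A libraries, with points for libraries and bars for the mean and SD. PCK2 moved from about 20.7 to 98.2 CPM and GOT1 from 56.5 to 161 CPM, while PDP1, PDK1, OGDH, SDHA, DLAT and IDH3A show smaller separations without overlap.

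**Figure D3:**
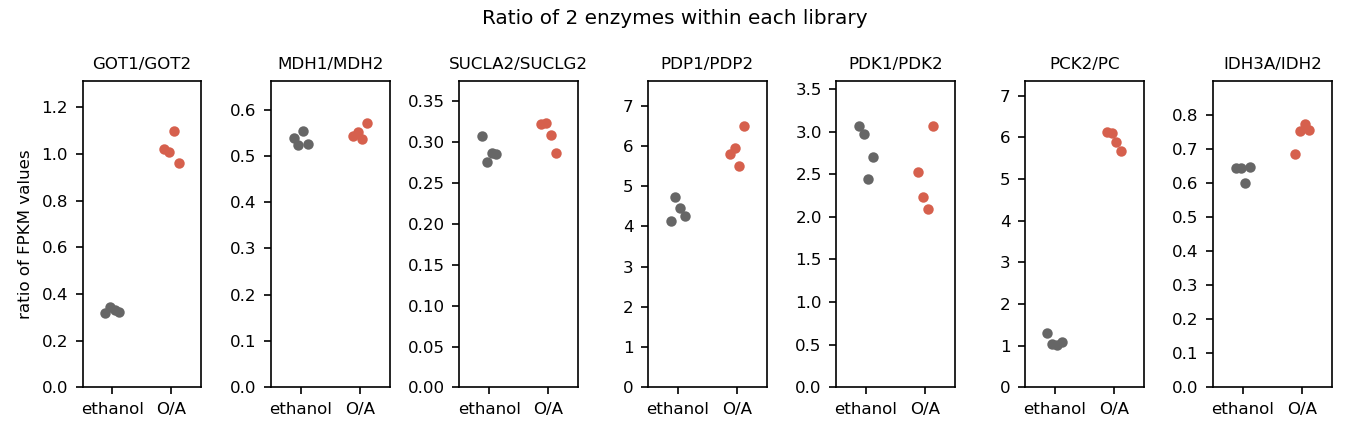
Ratios of FPKM values within each library (linear vertical axes, a separate scale in each panel) for 7 pairs of members. Points are the 4 ethanol and the 4 O/A libraries. The ratios of GOT1 to GOT2 and PCK2 to PC moved furthest, to at most 1.1 and 6.13 with O/A, and those of MDH1 to MDH2, SUCLA2 to SUCLG2 and PDK1 to PDK2 overlapped between the groups.

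At the entry of pyruvate into the cycle, PDK1 fell and PDP1 rose, while the subunits of the PDH complex itself did not pass both thresholds. PDK1 (ENSG00000152256), a kinase that inactivates the complex, lies on chromosome 2 from 172555373 to 172608669. Its level was 50.9, 51.5, 49.6 and 49.7 CPM with ethanol and 41.1, 42.2, 38.3 and 40.3 CPM with O/A. All O/A values were lower than all ethanol values, and the log2(FC) was -0.32 (standard error 0.045, 95% interval -0.41 to -0.23, adjusted p = 2.52e-08 from edgeR), a change of -19.8%. PDK1-AS1 on the opposite strand held reads equal to 6.54% of those of PDK1.

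PDP1 (ENSG00000164951), the catalytic subunit of the main phosphatase that reactivates the complex, rose by 21.7%. Its ethanol libraries held 105, 110, 106 and 107 CPM and its O/A libraries 125, 132, 128 and 136 CPM, with no overlap. The log2(FC) was 0.28 (95% interval 0.22 to 0.35, adjusted p = 1.30e-10 from edgeR), close to the threshold, and was 0.24, 0.23 and 0.24 on log2(FPKM + 0.1), on log2(FPKM + 1) and under quantile normalization, each within it. PDP2, the other phosphatase, stood at 37.4, 34.2, 35.0 and 36.9 CPM with ethanol and 31.5, 32.7, 34.1 and 30.8 CPM with O/A. The O/A values were lower, the closest libraries almost touched, and the log2(FC) was -0.15 (95% interval -0.25 to -0.05, adjusted p = 0.0101 from edgeR), within the threshold. The ratio of PDP1 to PDP2 in FPKM was 4.13 to 4.72 with ethanol and 5.50 to 6.49 with O/A, 1.35-fold higher (exact permutation p = 0.0286, adjusted p = 0.05).

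The remaining PDH kinases were scarce. PDK2 had 84 to 145 counts per library, the fewest of the members tested, and its log2(FC) of -0.12 had a 95% interval of -0.35 to 0.11, wider than the threshold in the negative direction (adjusted p = 0.384). PDK3 had a log2(FC) of 0.05 (95% interval -0.11 to 0.21, adjusted p = 0.630). PDK4, a kinase known for its induction by fasting, had 0, 0, 1 and 0 counts with ethanol and 0, 2, 0 and 0 with O/A, and no difference was detectable at this depth. PDK1 made up 59.4% to 63.8% of the summed kinase FPKM with ethanol and 53.5% to 60.1% with O/A, ranges that overlap. Such shares depend on the annotated exon lengths, 14845 bases for PDK1, 5471 for PDK2 and 17456 for PDK3. In FPKM PDK2 was above PDK3 on average, but in counts PDK3, with 250 to 390 per library, was above PDK2. The summed kinase level was 5.48 to 5.72 FPKM with ethanol and 4.44 to 4.99 FPKM with O/A, lower in every O/A library. The ratio of PDK1 to PDK2 was 2.44 to 3.07 with ethanol and 2.09 to 3.07 with O/A (log2 difference -0.18, exact permutation p = 0.257), so that a difference between these kinases was not shown.

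None of the 5 genes of the PDH complex passed both thresholds, and 4 of them had a 95% interval within 0.25 of 0. The member that moved most was DLAT, the acetyltransferase (E2) core. It stood at 101, 99.1, 104 and 101 CPM with ethanol and 88.5, 85.7, 91.8 and 89.1 CPM with O/A. The O/A libraries were all lower, and the log2(FC) was -0.19 (95% interval -0.26 to -0.12, adjusted p = 3.24e-06 from edgeR), within the threshold. PDHX, which anchors E3 to that core, went from 39.5, 39.5, 39.2 and 37.9 CPM to 42.0, 42.1, 43.8 and 40.3 CPM. These groups did not overlap either, in the opposite direction, with a log2(FC) of 0.11 (95% interval 0.02 to 0.20, adjusted p = 0.0421 from edgeR) and with reads equal to 21.3% of its own on the opposite-strand gene APIP. The E1 subunits PDHA1 and PDHB had log2(FC) values of -0.08 (95% interval -0.15 to -0.01, adjusted p = 0.0394) and -0.01 (95% interval -0.10 to 0.07, adjusted p = 0.806). Their libraries overlapped between the groups. DLD, the E3 subunit that the PDH and 2-oxoglutarate dehydrogenase complexes share, had a log2(FC) of -0.04 (95% interval -0.10 to 0.02, adjusted p = 0.241). LAMB1 on the opposite strand held reads equal to 126% of those of DLD.

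Within the TCA cycle, OGDH was the only one of 16 members called in either direction. OGDH (ENSG00000105953), the E1 subunit of the 2-oxoglutarate dehydrogenase complex, lies on chromosome 7 from 44606572 to 44709066. Its level was 188, 172, 187 and 182 CPM with ethanol and 147, 147, 144 and 149 CPM with O/A. Every O/A library was below every ethanol library, and the log2(FC) was -0.31 (standard error 0.030, 95% interval -0.37 to -0.25, adjusted p = 8.98e-13 from edgeR), a change of -19.4%. The partner subunit DLST (E2) stood at 126 to 133 CPM with ethanol and 122 to 126 CPM with O/A. Its log2(FC) of -0.07 had a 95% interval of -0.13 to -0.01, which does not overlap that of OGDH, and the difference between these subunits had no test of its own.

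The first steps of the cycle moved little and in both directions. CS, the citrate synthase that condenses acetyl-CoA with oxaloacetate, held 260, 273, 270 and 266 CPM with ethanol and 255, 247, 246 and 253 CPM with O/A. The groups did not overlap, but the log2(FC) was only -0.09 (95% interval -0.15 to -0.04, adjusted p = 0.00231 from edgeR). IDH3A, the catalytic subunit of the NAD-dependent isocitrate dehydrogenase, stood at 63.0, 64.1, 62.6 and 64.3 CPM with ethanol and at 71.4, 71.1, 75.1 and 71.4 CPM with O/A. It was higher in each O/A library, with a log2(FC) of 0.19 (95% interval 0.11 to 0.26, adjusted p = 3.80e-05 from edgeR), within the threshold. Of its partner subunits, IDH3B had a log2(FC) of 0.03 (adjusted p = 0.515) and IDH3G -0.11 (95% interval -0.22 to -0.01, adjusted p = 0.0515). SSR4, which overlaps IDH3G on the opposite strand, held reads equal to 178% of those of IDH3G. IDH2, the NADP-dependent mitochondrial enzyme of the same step, had a log2(FC) of -0.04 (95% interval -0.13 to 0.06, adjusted p = 0.521). The ratio of IDH3A to IDH2 in FPKM was 0.601 to 0.647 with ethanol and 0.687 to 0.773 with O/A, 1.17-fold higher (exact permutation p = 0.0286, adjusted p = 0.05).

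The succinyl-CoA ligase genes stayed within the threshold. SUCLA2, the ATP-forming subunit, ranged from 53.5 to 58.4 CPM with ethanol and from 58.4 to 65.5 CPM with O/A. The lowest O/A library fell just under the highest ethanol library, and the log2(FC) was 0.15 (95% interval 0.06 to 0.23, adjusted p = 0.00252 from edgeR). SUCLG2, the GTP-forming alternative, and SUCLG1, the subunit shared by both forms, had log2(FC) values of 0.04 (adjusted p = 0.381) and 0.06 (adjusted p = 0.184). The ratio of SUCLA2 to SUCLG2 did not separate the groups (0.276 to 0.308 against 0.287 to 0.323, exact permutation p = 0.0857).

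None of the 4 succinate dehydrogenase genes, which encode complex II of the respiratory chain, passed both thresholds. SDHA, the flavoprotein subunit, stood at 37.9, 33.3, 36.1 and 36.0 CPM with ethanol and at 32.2, 31.0, 30.1 and 30.8 CPM with O/A. The groups did not overlap, and the log2(FC) was -0.21 (95% interval -0.31 to -0.11, adjusted p = 4.40e-04 from edgeR), within the threshold. This value is uncertain, because the pseudogenes SDHAP4 and SDHAP1 held reads equal to 59.2% and 35.5% of those of SDHA, with log2(FC) values of 0.16 and 0.08. Summed over SDHA and 3 pseudogenes, a comparison added after the values had been seen, the level was 66.4 ± 2.04 CPM with ethanol and 64.4 ± 1.99 CPM with O/A (SD, n = 4, exact permutation p = 0.229). SDHB, the iron-sulfur subunit, held 71.4, 70.6, 73.5 and 67.6 CPM with ethanol and 75.9, 76.3, 76.7 and 77.0 CPM with O/A. It was higher in each O/A library by a log2(FC) of 0.11 (95% interval 0.04 to 0.19, adjusted p = 0.00841 from edgeR). The membrane anchors SDHC and SDHD had log2(FC) values of -0.03 (95% interval -0.10 to 0.04) and 0.03 (95% interval -0.05 to 0.12), and FH, the fumarase of the next step, had 0.01 (95% interval -0.06 to 0.07).

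Levels were compared between genes in FPKM, where the length is that of all annotated exons of a gene together. With ethanol the most abundant members were GOT2 at 72.0 ± 2.19 FPKM, MDH2 at 54.1 ± 1.5 FPKM and SDHC at 51.1 FPKM (SD, n = 4), and PDK3 at 0.900 FPKM and PDK2 at 1.24 FPKM were the lowest of those tested. GOT1 was 11th with 23.7 ± 1.46 FPKM and became first with 65.4 ± 3.00 FPKM after O/A, next to GOT2 at 64.1 ± 0.775 FPKM, a gap smaller than the SD of GOT1. PCK2 moved from 26th with 5.04 ± 0.521 FPKM to 12th with 23.1 ± 0.445 FPKM, beside PDP1 at 22.9 ± 0.883 FPKM, from which it did not differ beyond the spread. OGDH went from 35.6 ± 1.47 FPKM to 27.8 ± 0.397 FPKM and from 7th to 10th. FPKM are not TMM scaled, and the scaling factors were 1.01 to 1.02 with ethanol and 0.982 to 0.988 with O/A, so FPKM values of O/A libraries sit slightly low beside the CPM values.

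**Figure D4:**
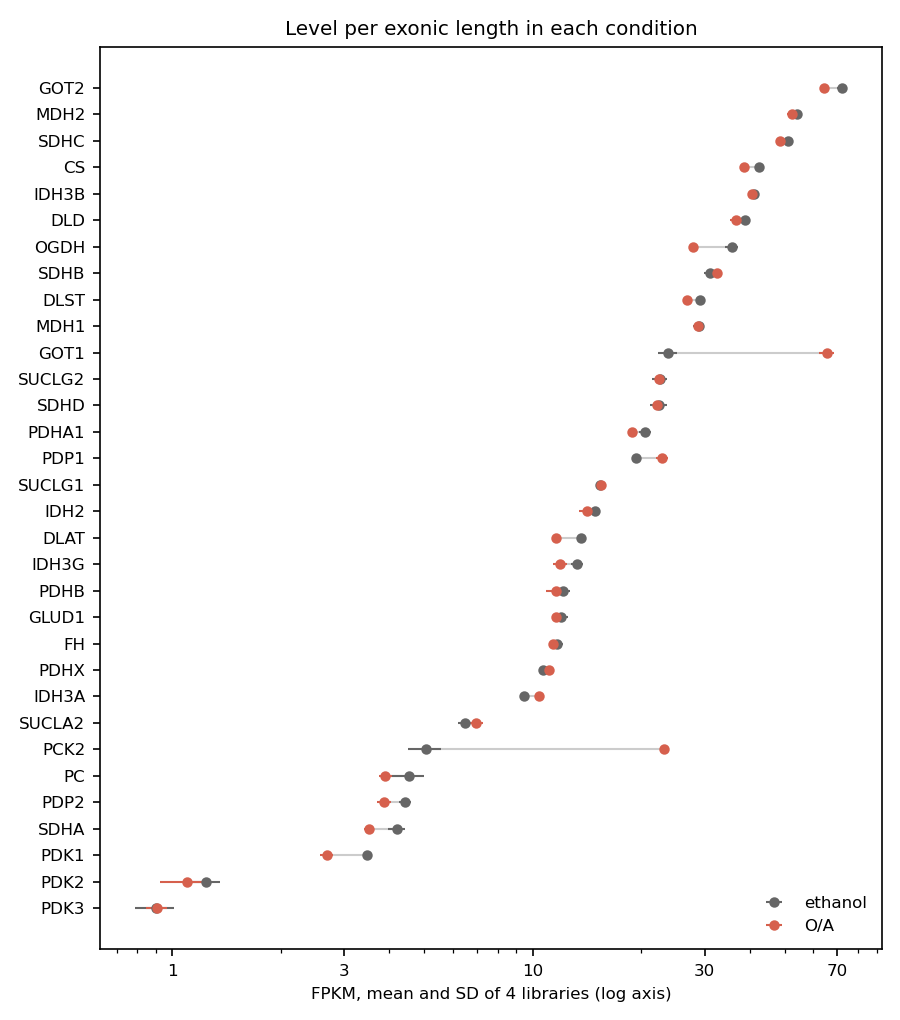
FPKM (logarithmic axis, mean and SD of 4 libraries) of the 32 members tested, with one point per condition. GOT1 and PCK2 moved up the order with O/A, from 23.7 to 65.4 FPKM and from 5.04 to 23.1 FPKM. The other genes moved less, among them OGDH (35.6 to 27.8 FPKM), PDK1 (3.46 to 2.68 FPKM) and PDP1 (19.4 to 22.9 FPKM).

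A second list held 34 genes of the same pathway that are not members, such as carriers, assembly factors and alternative enzymes, and 28 of them were tested. Of these, 3 rose, 6 fell and 19 did not pass both thresholds, so that 32.1% were called, near the 34.7% of all genes. GPT2, the mitochondrial alanine aminotransferase that converts pyruvate and glutamate to alanine and 2-oxoglutarate, rose most, from 301 to 390 counts with ethanol to 1256 to 1465 with O/A (log2(FC) 2.04, standard error 0.050, adjusted p = 8.37e-37 from edgeR). SDHAF4, an assembly factor of succinate dehydrogenase, had 0.55 (adjusted p = 2.94e-04), and MPC1, a subunit of the mitochondrial pyruvate carrier, 0.27 (adjusted p = 9.23e-04). MPC1 was within the threshold on log2(FPKM + 0.1) at 0.23, on log2(FPKM + 1) at 0.21 and without O/A replicate 4 at 0.23. Of the 6 SLC25 carriers of the inner membrane in the list, 3 fell and 3 were not called. SLC25A12, an aspartate-glutamate carrier of the malate-aspartate shuttle, went from 680 to 776 counts per library to 360 to 445 (log2(FC) -0.78, adjusted p = 1.59e-17 from edgeR). The other aspartate-glutamate carrier, SLC25A13, had 1196 to 1466 counts with ethanol and 1080 to 1212 with O/A, with a log2(FC) of -0.15 (adjusted p = 9.71e-04), within the threshold. The dicarboxylate carrier SLC25A10 had -0.41 (adjusted p = 0.00606) and the glutamate carrier SLC25A22 -0.38 (adjusted p = 1.88e-07). LIAS and LIPT2, both of which act in making the lipoyl group that DLAT and DLST carry, had -0.40 (adjusted p = 2.32e-05) and -1.23 (adjusted p = 5.10e-05). The LIPT2 value rests on 23 to 44 counts per library with ethanol and 11 to 15 with O/A. ACLY, the cytosolic enzyme that splits citrate, had -0.30 (adjusted p = 2.74e-14).

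For 7 members a gene on the opposite strand held reads equal to more than 5% of theirs, and reads in a shared stretch cannot be told apart, since whether strand was used in counting is not given in the sources used here. Beside those given above, they include GLUD1, with SHLD2 at 26.0% and a log2(FC) of -0.36 for SHLD2. PCK2, GOT1, PDP1 and OGDH had no such neighbour.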

How the data were processed

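The 8 libraries of poly(A)-selected mRNA were grouped by their labels, and the doses and time were taken from the study's methods. The authors aligned reads to GRCh38.p13 with HISAT2 2.0.1 and made each count with HTSeq 0.6.1, per the labels, and the deposited counts are not normalized. FPKM values, deposited by the authors, were each within 0.005 of count divided by exonic size and library total. A further table, the DESeq2 comparison of the authors, holds log2 fold changes, standard errors, p-values, mean normalized signal, a fold change ratio and a test score, and none of these deposited columns was used.

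The comparison was fitted in edgeR 4.0.16 under R 4.3.3 (TMM scaling, robust quasi-likelihood test, no covariates, all 8 libraries) on the 14893 genes that reached 10 counts in 4 or more libraries, with Benjamini-Hochberg adjustment over all of them. A call needed an adjusted p of at most 0.05 and an absolute log2(FC) above 0.25. Ratios of FPKM and single genes were compared by exact two-sided permutation tests, 4 libraries against 4. Intervals are at 95%. P-values measure the spread between replicates, which the labels call biological. The precision rests on that spread and on the depth of 17210404 to 20999927 counts per library. The fits were tested on simulated data. Alternatives were DESeq2 1.42.0, limma 3.58.1 on log2(FPKM + 0.1), log2(FPKM + 1) and quantile-normalized values, median-ratio scaling, other filters and thresholds, the replicate number as a block and each library left out.

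The members, the list of other pathway genes, the pairs and the motifs were chosen with earlier results of these data known. All 33 members were named, with the genes of the second list past both thresholds and up to 3 others. Overlapping genes and pseudogenes were named where their reads equalled over 5% of those of a member. Some genes are not reported here. The 8th pair, PDK3 to PDK4, gave no ratio because PDK4 was at 0 in most libraries. Promoter sequences came from RefSeq, where 30 of 33 members matched.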

Additional observations from a re-analysis of the deposited data

Results flagged for a closer look

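In 64 groups of 4 libraries, 1 for each member and condition, a library stood apart from the others of its group by Dixon's ratio in 4, where chance gives 3.2, about 1 in 20. PC was at 37.3 CPM in ethanol replicate 3 and at 30.7 to 31.2 CPM in the other ethanol libraries. O/A replicate 3 stood apart for the remaining 3 genes. It held 75.1 CPM of IDH3A against 71.1 to 71.4 CPM, 102 CPM of IDH3B against 106 to 107 CPM, and 101 CPM of PCK2 against 97.1 to 97.4 CPM. For PCK2, IDH3A and IDH3B these gaps are small beside the difference between conditions or beside the level, and what set this library apart was not tested.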

How the results depend on the processing

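The 3 rises and 2 falls among the members were counted again without each library in turn and with the replicate block, and PCK2 (log2(FC) 2.00 to 2.31), GOT1 (1.43 to 1.54), PDK1 (-0.35 to -0.28) and OGDH (-0.38 to -0.29) kept their call under every alternative that tested them, except that PDK1 and OGDH were within the fold thresholds of 0.5 and 1. The replicate block gave 2354 genes up and 2806 down over all genes, 3 up and 2 down among the members, and 3 up and 6 down in the second list. Same-numbered libraries deviated together with correlations of only 0.0389, -0.00212, -0.0226 and 0.0675, so the numbers were not used as pairs. Requiring a mean FPKM of 5 left 1081 up and 1118 down, with 1 member and 2 genes of the second list down, since PDK1 and other low genes were not tested. With log2(FPKM + 1), 1514 genes were up. Without a fold threshold 3868 were up, with 7 members up and 10 down and 6 and 10 of the second list. Above an absolute log2(FC) of 0.5, 1191 were up and 1445 down, 0 members down and 2 of the second list down. Above 1 these were 382 and 415, 0 members down, and 1 up and 1 down in the second list.

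Leaving out 1 library gave 2259 to 2435 genes up and 2636 to 2760 down, and 2 to 4 up and 6 down in the second list. MRPS36, at 0.22, passed the threshold without ethanol replicate 1 (0.25) or replicate 2 (0.28). PC had an adjusted p of 0.0595 without O/A replicate 2. The log2 ratio differences were 1.6 to 1.66 for GOT1 to GOT2, 2.38 to 2.49 for PCK2 to PC, 0.392 to 0.471 for PDP1 to PDP2, 0.198 to 0.260 for IDH3A to IDH2, 0.0813 to 0.141 for SUCLA2 to SUCLG2, 0.0238 to 0.0584 for MDH1 to MDH2 and -0.292 to -0.108 for PDK1 to PDK2.

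Only values near 0 changed sign. On log2(FPKM + 0.1) and log2(FPKM + 1) these were IDH3B (-0.0192, -0.0188), SUCLG2 (-0.00422, -0.0041), SDHD (-0.0128, -0.0124), FH (-0.0388, -0.0361), MDH1 (-0.00504, -0.0049) and GLUD1 (-0.0399, -0.0371). Under quantile normalization they were IDH3B (-0.009), FH (-0.0313), MDH1 (-0.0196) and GLUD1 (-0.067). With a mean FPKM of 5, FH was -0.0142 and GLUD1 -0.0152. MDH2 was 0.00586 with median-ratio scaling and 0.00585 with DESeq2. Without single libraries PDHB ranged from -0.0362 to 0.0251, FH from -0.0035 to 0.0269, MDH2 from -0.0121 to 0.0212 and GLUD1 from -0.00988 to 0.0344. The cause was not tested. Depth limits PDK2, PDK3 and PDK4 most.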
